A study of Mus musculus with 12 samples.

Results

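The livers compared here were those of mice given an adenovirus carrying Cre recombinase (Adeno-Cre) and those of mice given an adenovirus carrying green fluorescent protein (Adeno-GFP), taken over both diets of the study. All 12 of the 12 arrays entered, 6 for each injection, and were chosen by the injection and diet in their labels. Every mouse was a C57Bl/6N male, 2 months old, homozygous for a floxed p53 allele (p53 fl/fl, Trp53tm1Brn/J), so the Adeno-GFP controls carried the floxed allele as well. Viruses of equal titer went into the tail vein, and 3 days later the mice either kept free access to chow or were fasted for 24 h before they were killed. This gave 4 groups of 3 arrays: fed Adeno-GFP, fed Adeno-Cre, fasted Adeno-GFP and fasted Adeno-Cre. Cre acts only in cells the virus has entered, no promoter for the transgenes is named in the labels, and the injections differed in viral cargo as well as in p53, so loss of p53 and presence of Cre cannot be told apart. Trp53 was not analysed here, so the labels were not checked against the targeted gene. The labels number the arrays of a group without saying that each is a separate mouse, and p-values therefore measure the spread between these arrays.

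p53 is a transcription factor that binds pairs of half-sites in DNA, switches on genes that halt the cell cycle, repair DNA or start cell death, and through the cell cycle inhibitor p21 (Cdkn1a) helps to keep mitotic genes off. The liver is made mostly of hepatocytes, long-lived cells that seldom divide, break down amino acids, make bile acids and plasma proteins and clear foreign compounds, with different tasks near the portal vein and near the central vein. Intravenous adenovirus is taken up largely by the liver.

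Levels are log2 values in arbitrary array units, so a difference of 1 is a doubling, and the change given for a gene is the Adeno-Cre mean minus the Adeno-GFP mean, averaged over the diets with equal weight. A gene was called when its p-value from limma, adjusted by Benjamini-Hochberg over all 22180 genes, was under 0.05. It was counted as moved alike in both diets when, besides that call, its 3 Adeno-Cre arrays all lay on the same side of its 3 Adeno-GFP arrays among fed mice and again among fasted mice. In the averaged comparison 451 genes were lower (2.03% of those tested) and 788 were higher (3.55%). Of these, 324 were lower in both diets (1.46%) and 594 were higher in both (2.68%). Without regard to p, arrays did not overlap in either diet for 571 genes on the lower side (2.57%) and 798 on the higher side (3.6%). The number of lower genes moved with single arrays, to 260 without fasted Adeno-Cre array 2, 294 without fed Adeno-Cre array 2, 258 without fed Adeno-Cre array 3, 288 without fasted Adeno-GFP array 2, 258 without fed Adeno-GFP array 1 and 236 without fed Adeno-GFP array 3. Of the 324 genes lower in both diets, 161 kept the limma call without each array in turn, and of the 594 higher in both, 463 did. The count lower in both diets was 197 without fed Adeno-GFP array 3.

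The falls were many and small, and the rises were larger. Among the 324 genes lower in both diets the median change was -0.31 (quartiles -0.40 and -0.26), a 1.24-fold reduction, and the largest was -0.95. None of them reached a 2-fold fall, and 15 (4.63%) reached 1.5-fold. Among the 594 genes higher in both diets the median was 0.50, a 1.42-fold rise, the largest was 2.59, and 115 at least doubled. All genes together had a median of -0.03. The 324 lowered genes had medians of -0.31 in fed and -0.30 in fasted mice. In 278 of them (85.8%) the smaller change was at least 0.5 of the larger, and so it was in 488 of the 594 raised genes (82.2%). Separation of the arrays in each diet was part of the choice of both sets, which favours changes of like size. Among all 451 genes lower on average, the same held for 342 (75.8%). The raised genes had medians of 0.41 in fed and 0.57 in fasted mice, and the change was larger in fed mice for 121 of the 594, against 177 of the 324 lowered genes. Past the limma threshold in each diet taken alone were 18 genes on the lower side (0.0812%) and 153 on the higher side (0.69%), where each test rests on 3 arrays against 3.

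**Figure D1:**
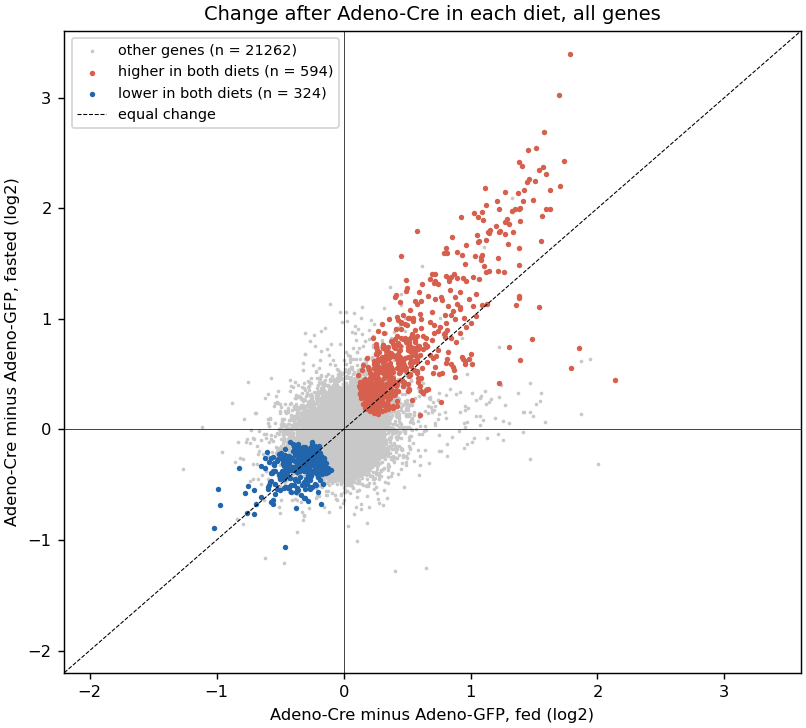
Each point is 1 gene, with the Adeno-Cre minus Adeno-GFP difference (log2) in fed mice on the horizontal axis and in fasted mice on the vertical axis. Blue points are the 324 genes lower in both diets and red points the 594 higher in both, both chosen partly by these differences. The blue points lie close to the line of equal change and reach down to -1.02 in fed and -1.06 in fasted mice, while 473 of the 594 red points lie above that line.

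Many lowered genes were bright on the arrays. Their median level was 8.84 against 6.51 for all genes, and 278 of the 324 had every group mean above the highest array median of 6.33. When genes were ranked by mean level and cut into 4 sets of 5545, 0.325% of the dimmest set were lower in both diets, and 0.469%, 1.15% and 3.90% of the sets that followed. The corresponding shares of genes higher in both diets were 0.144%, 0.92%, 4.17% and 5.48%. The median standard error of the change was 0.09 in the dimmest set and 0.06 in the brightest. Shares of all genes set beside gene lists below include the dimmer sets, so for lists of bright genes they are a low comparison.

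The first question for an experiment on p53 is what its own target genes did, and 8 of 36 measured p53 targets were lower after Adeno-Cre (22.2%, against 2.03% of all genes) and none was higher. The median of the list was -0.13, against -0.03 for all genes, and 30 of the 36 changes were negative. Of all 22180 genes, 13296 had a negative change. Ccng1 (cyclin G1), Dcxr (L-xylulose reductase), Zmat3 (an RNA-binding protein), Ptpn14 (a tyrosine phosphatase) and Sesn1 (sestrin 1) were lower in both diets, and Eda2r (a receptor of the tumour necrosis factor family), Plk2 (polo-like kinase 2) and Tob1 (an antiproliferative protein) were lower on average only. The count of 8 fell to 4 without fasted Adeno-Cre array 2, 3 without fed Adeno-Cre array 2, 2 without fed Adeno-Cre array 3, 4 without fasted Adeno-GFP array 1, 5 without fasted Adeno-GFP array 2 or 3, 3 without fed Adeno-GFP array 1, and 4 without fed Adeno-GFP array 2 or 3. Ccng1 and Dcxr kept their calls without each array in turn.

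To show which of these genes carry the motif that p53 binds, promoters from RefSeq (mouse build GRCm38.p6, 250 bases before to 50 after a gene's start) were searched on both strands for the p53 response element, a pair of 10-base half-sites with a spacer of up to 13 bases and up to 1 mismatch outside the core letters of the half-sites. Promoters were matched for 16918 of the 22180 genes. The element was found in 0.6% of all of them and in 2 of 28 (7.1%) of the p53 list. It was found in 3 of 259 promoters (1.2%) of genes lower in both diets and in 2 of 477 (0.4%) of genes higher in both. The members of the p53 list that hold it are Ccng1 and Cdkn1a, and the 250 bases before their starts are printed with half-sites in capitals, for Ccng1 at chr11:40755287-40755536 (minus strand) and for the upstream of the RefSeq starts of Cdkn1a at chr17:29090729-29090978 (plus strand).
Ccng1: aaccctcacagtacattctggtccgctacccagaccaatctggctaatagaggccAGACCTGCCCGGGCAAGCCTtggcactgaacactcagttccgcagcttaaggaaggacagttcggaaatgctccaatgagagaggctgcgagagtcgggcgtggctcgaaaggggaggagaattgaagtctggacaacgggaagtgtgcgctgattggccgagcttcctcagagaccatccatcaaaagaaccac
Cdkn1a: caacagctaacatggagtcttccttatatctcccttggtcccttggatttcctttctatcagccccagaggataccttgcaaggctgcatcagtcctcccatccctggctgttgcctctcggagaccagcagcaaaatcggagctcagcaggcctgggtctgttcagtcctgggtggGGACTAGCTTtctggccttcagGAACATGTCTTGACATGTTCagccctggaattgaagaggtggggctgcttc
The other genes lower in both diets that hold an element are Nox4, an oxidase that makes hydrogen peroxide, at chr7:87246502-87246527 (plus strand), and Serpina3n, a secreted protease inhibitor, at chr12:104406494-104406524 (plus strand), shown with half-sites in capitals and the spacer in lower case.
Nox4: GGGCATGTCTgcagctGGACAGGCCC
Serpina3n: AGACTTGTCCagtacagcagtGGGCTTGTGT
A match describes these letters only and does not show that p53 was bound there, and elements farther from the start, such as those in introns, were not searched.

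Ccng1, a cyclin whose gene is a long-known p53 target, was clearly separated between injections. It read 11.12, 11.23 and 11.04 in fed Adeno-GFP livers against 10.58, 10.43 and 10.63 in fed Adeno-Cre livers, and 11.12, 10.90 and 11.05 against 10.62, 10.54 and 10.40 in fasted livers. Every Adeno-Cre array lay below every Adeno-GFP array, whatever the diet, and the gene fell by 0.54 on the log2 scale (SE 0.07, limma adjusted p = 0.000376). Dcxr, which reduces L-xylulose in the uronate cycle, read 8.70, 8.49 and 8.77 against 8.01, 7.93 and 7.92 in fed livers, and 9.27, 9.11 and 9.14 against 8.62, 8.58 and 8.68 in fasted livers. Its levels were higher with fasting after either injection and lower after Adeno-Cre in either diet, by 0.70 (fed) and 0.55 (fasted). Averaged over diets, Dcxr fell by 0.63 (SE 0.06, limma adjusted p = 9.97e-05).

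Cdkn1a and Mdm2, the gene of p53's own ubiquitin ligase, did not pass the threshold. Cdkn1a read 7.68, 8.28 and 7.62 against 7.15, 7.21 and 7.19 in fed livers, where the groups did not overlap. In fasted livers it read 9.40, 7.65 and 8.39 against 7.71, 8.24 and 8.14, where the Adeno-GFP arrays spanned the Adeno-Cre arrays. The averaged change was -0.56 with an SE of 0.24 (limma adjusted p = 0.21), and it was past the threshold in 1 of the 12 fits that left out an array. Mdm2 read 8.74, 8.92 and 8.70 against 8.53, 8.52 and 8.46 in fed livers, and 8.67, 8.50 and 8.52 against 8.57, 8.51 and 8.36 in fasted livers, a change of -0.18 (SE 0.06, limma adjusted p = 0.122). Fed arrays of Mdm2 did not overlap and fasted arrays did. Among the other targets, Btg2 (-0.63, limma adjusted p = 0.0618) and Trp53inp1 (-0.50, limma adjusted p = 0.251) had large changes and did not pass, and Bbc3, Fas and Tnfrsf10b, which promote cell death, had changes of -0.11, -0.01 and 0.14 and did not pass either.

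Plk2 and Sesn1 passed with less support. Plk2 read 9.21, 9.18 and 8.94 against 8.42, 8.37 and 8.34 in fed livers, and 8.31, 7.95 and 8.48 against 8.25, 8.24 and 7.88 in fasted livers. Its fall was 0.73 in fed mice, with well separated arrays, and its fasted arrays overlapped, with a change of -0.12. The averaged limma call of Plk2 (adjusted p = 0.0244) was lost without fed Adeno-Cre array 2 or 3, fasted Adeno-GFP array 1 or 3, or fed Adeno-GFP array 1 or 2. Sesn1, whose protein restrains growth signalling under stress, read 8.21, 8.27 and 8.22 against 8.17, 8.10 and 8.13 in fed livers, and 8.48, 8.43 and 8.31 against 8.06, 7.87 and 8.19 in fasted livers. The groups of Sesn1 did not overlap in either diet, but the fall of 0.23 (limma adjusted p = 0.045) was past the threshold in 2 of the 12 fits without 1 array, those without fasted Adeno-Cre array 3 or fasted Adeno-GFP array 3. Nox4, named after its values and its element were seen, read 10.42, 10.31 and 10.26 against 10.03, 9.82 and 9.76 in fed livers, and 9.73, 10.14 and 9.73 against 9.41, 9.38 and 9.26 in fasted livers. Its arrays were separated in both diets, and it fell by 0.49 (SE 0.08, limma adjusted p = 0.00358). Serpina3n, named in the same way, fell by 0.24 (limma adjusted p = 0.0297), a call that held in 5 of the 12 fits without 1 array.

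The largest falls shared by both diets were those of Cib3, Hal, Ppp1r3c, Neb, Retreg1, Ido2, Agxt, Nr1i3, Akr1c6 and Dcxr, between 0.95 and 0.63 on the log2 scale. The next were Cyp2c54, Masp1, P2ry4, Mfsd4b1, Gulo, Ccng1, Lyz2, Acpp, Rdh16f2 and Cyp2d37-ps, between 0.61 and 0.52. These 20 genes, ranked among genes with every group mean above the array medians and without predicted genes, kept their limma calls without each array in turn. They were chosen by their averaged change and by separation of the arrays in each diet. Their values therefore describe both and test neither further.

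Cib3, a calcium-binding protein related to the integrin-binding protein CIB1, fell most. It read 10.39, 10.33 and 9.95 against 9.27, 9.19 and 9.16 in fed livers, and 9.90, 10.13 and 9.65 against 9.31, 8.36 and 9.35 in fasted livers. All 6 Adeno-Cre arrays lay below all 6 Adeno-GFP arrays, with fasted Adeno-Cre array 2 lowest, and the change was -0.95 (SE 0.16, 1.94-fold, limma adjusted p = 0.00376). Hal, histidine ammonia-lyase, which starts histidine breakdown, read 11.27, 10.99 and 11.22 against 10.46, 10.23 and 9.87 in fed livers, and 11.89, 11.80 and 11.72 against 11.41, 10.81 and 11.13 in fasted livers. Fasted livers had more Hal after either injection, and within each diet the Adeno-Cre arrays were lower, by 0.97 in fed and 0.69 in fasted mice. Averaged, Hal fell by 0.83 (SE 0.12, 1.78-fold, limma adjusted p = 0.00102).

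Agxt and Nr1i3 were also lowest in fed Adeno-Cre livers. Agxt, the aminotransferase that removes glyoxylate in peroxisomes, read 9.35, 8.98 and 9.29 against 8.44, 8.58 and 8.25 in fed livers, and 9.95, 9.83 and 9.59 against 9.51, 8.98 and 9.16 in fasted livers. The arrays were apart in each diet, by a small margin between the lowest fasted control and the highest fasted Adeno-Cre array, and Agxt fell by 0.68 (SE 0.11, limma adjusted p = 0.00237). Nr1i3, the constitutive androstane receptor that governs drug-metabolising genes, read 10.77, 10.74 and 10.63 against 10.12, 9.92 and 9.85 in fed livers, and 10.78, 11.36 and 10.86 against 10.47, 10.73 and 10.27 in fasted livers. Its fall of 0.63 (SE 0.11, limma adjusted p = 0.00429) was the largest among the listed hepatocyte transcription factors and nuclear receptors. Of 26 hepatocyte transcription factors and nuclear receptors, Nr1i3 and Onecut2 were lower (7.69%, against 2.03% of all genes) and none was higher. Hnf4a (-0.12), Cebpa (-0.11), Ppara (-0.25) and Nr1i2 (-0.17), the pregnane X receptor, did not pass. Onecut2 lost its call in 6 of the 12 fits without 1 array, among them each of the 3 without an Adeno-Cre fasted array.

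Ppp1r3c, which brings protein phosphatase 1 to glycogen, read 10.27, 9.23 and 9.24 against 8.57, 8.79 and 8.42 in fed livers, and 9.66, 9.60 and 9.56 against 8.93, 9.12 and 9.13 in fasted livers. Among the fed livers, fed Adeno-GFP array 1 stood about 1 unit above the other controls, and the arrays were separated in each diet with or without it. Retreg1, a receptor for the autophagy of endoplasmic reticulum, read 9.97, 9.75 and 9.99 against 9.40, 9.30 and 8.90 in fed livers, and 11.03, 10.96 and 10.80 against 10.38, 9.96 and 10.14 in fasted livers. It was about 1 unit higher in fasted than in fed livers and fell by 0.70 and 0.77 after Adeno-Cre (averaged limma adjusted p = 0.000846). Akr1c6, a hydroxysteroid dehydrogenase, read 10.59, 10.63 and 10.46 against 9.87, 9.83 and 10.02 in fed livers, and 9.52, 9.93 and 9.59 against 8.94, 9.19 and 9.09 in fasted livers. Unlike Retreg1 it was lower with fasting, and it fell by 0.65 in fed and 0.61 in fasted mice (averaged limma adjusted p = 0.000589).

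Gulo, the last enzyme of vitamin C synthesis, read 9.72, 9.81 and 9.84 against 9.12, 9.43 and 9.03 in fed livers, and 9.83, 9.54 and 9.50 against 9.16, 9.06 and 9.09 in fasted livers. Masp1, a protease that starts the lectin pathway of complement, read 10.87, 10.73 and 10.96 against 10.44, 10.19 and 10.21 in fed livers, and 10.57, 10.79 and 10.41 against 10.05, 9.91 and 9.85 in fasted livers. In both genes the groups were apart in each diet, with falls of 0.56 (limma adjusted p = 0.00132) and 0.61 (limma adjusted p = 0.000631). Ido2, a relative of the tryptophan-cleaving dioxygenase IDO1, fell by 0.68 (SE 0.11, limma adjusted p = 0.00248), and Neb, known as the giant filament protein nebulin of muscle, fell by 0.76 (SE 0.13, limma adjusted p = 0.00469). Lyz2, a lysozyme of macrophages, fell by 0.54 (limma adjusted p = 0.0111), and its lowest array was fasted Adeno-Cre array 2, at 9.02.

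**Figure D2:**
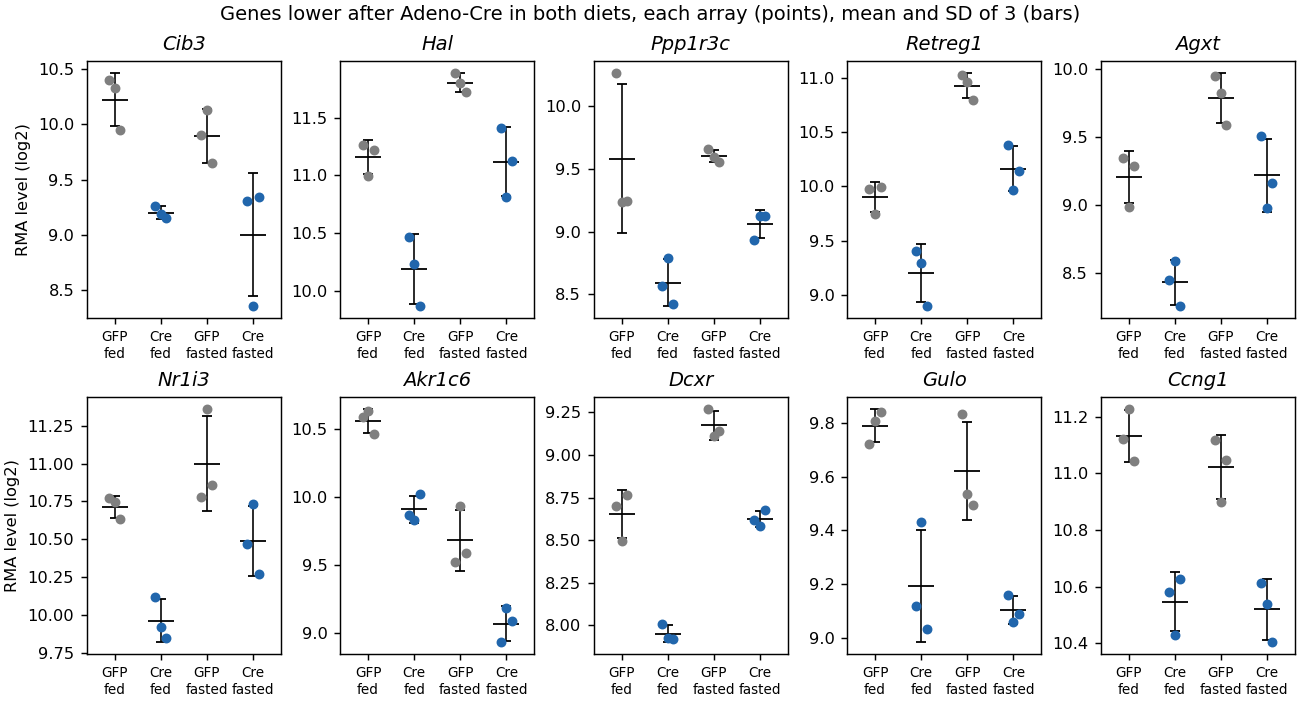
Levels (log2) of 10 of the largest shared falls on each of the 12 arrays, grey for Adeno-GFP and blue for Adeno-Cre, with the mean and SD of each group of 3 as bars; each panel has its own vertical range. In every panel the blue points lie below the grey points of the same diet, which was part of the choice of these genes. Fasting itself raises Hal, Retreg1, Agxt, Nr1i3 and Dcxr and lowers Akr1c6.

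Many of the lowered genes encode enzymes that break down amino acids. Over 6 lists with 74 distinct measured genes of amino acid breakdown and the urea cycle, 34 were lower after Adeno-Cre (45.9%, against 2.03% of all genes) and none was higher. In both diets 30 were lower (1.46% of all genes were, and 3.90% of the brightest 5545 genes). The median change was -0.21 (-0.26 in fed and -0.20 in fasted mice) against -0.03 for all genes. Negative changes were 71 of the 74, and 13296 of 22180 over all genes. Taken alone, fed mice had 11 of these genes lower in limma (0.415% of all genes were lower there) and fasted mice 3 (0.482%). The count of 34 was 22 without fasted Adeno-Cre array 2, 19 without fed Adeno-Cre array 3 and 18 without fed Adeno-GFP array 3. The lists were drawn up with earlier results of these data known, so the counts describe these genes and are not independent evidence.

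Histidine breakdown was lower at each of its 4 steps. Hal, Uroc1 (urocanase), Amdhd1 (imidazolonepropionase) and Ftcd (formiminotransferase cyclodeaminase) changed by -0.83, -0.46, -0.43 and -0.40, all lower in both diets. Amdhd1 read 10.76, 10.52 and 10.74 against 10.23, 10.21 and 10.14 in fed livers, and 11.09, 11.09 and 10.97 against 10.77, 10.51 and 10.75 in fasted livers. Ftcd read 9.77, 9.74 and 9.88 against 9.31, 9.41 and 9.28 in fed livers, and 10.31, 10.17 and 10.14 against 9.98, 9.85 and 9.78 in fasted livers. Both genes were apart in each diet (limma adjusted p = 0.00209 and 0.00152). For lysine, Aass, the first enzyme, read 11.65, 11.60 and 11.84 against 11.46, 11.43 and 11.31 in fed livers, and 12.42, 12.40 and 12.44 against 11.98, 11.83 and 11.85 in fasted livers. Its fasted arrays were farther apart (-0.54) than its fed arrays (-0.30), and the interaction did not pass across all genes.

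Tryptophan breakdown was mixed. Afmid and Haao, of the kynurenine pathway, fell by 0.35 and 0.37 (limma adjusted p = 0.00973 and 0.0198). Tdo2, which opens that pathway, had a change of -0.02 (SE 0.05), and Kmo and Kynu had changes of 0.00 and -0.13, none past the threshold. In all, 8 of 14 genes for histidine, lysine and tryptophan were lower (57.1%, against 2.03% of all genes). Each of the 8 was lower in both diets (1.46% of all genes were), and the list median was -0.36.

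Of 6 genes for phenylalanine and tyrosine, 3 were lower, all in both diets. Hpd, which makes homogentisate, read 12.30, 12.22 and 12.40 against 11.97, 12.02 and 11.83 in fed livers, and 12.82, 12.74 and 12.68 against 12.44, 12.24 and 12.41 in fasted livers. The groups were apart in both diets, and Hpd fell by 0.38 (SE 0.06, limma adjusted p = 0.00272). Fah and Hgd, the following enzymes of the pathway, fell by 0.23 and 0.21. Tat, tyrosine aminotransferase, changed by -0.41 without passing. The count of 3 was 1 without fed Adeno-Cre array 3, fasted Adeno-GFP array 2 or fed Adeno-GFP array 3, and Hgd passed in 2 of the 12 fits that left out an array.

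One-carbon and sulfur amino acid genes were lower in 8 of 18 cases (44.4%, against 2.03% of all genes). In both diets 7 of them were lower (1.46% of all genes were). Gnmt, which uses surplus methyl groups, fell by 0.44 (limma adjusted p = 0.00871), Cth, which makes cysteine, by 0.39 (limma adjusted p = 0.0238) and Bhmt2, a homocysteine methyltransferase, by 0.40. Bhmt2 read 9.67, 9.66 and 9.73 against 9.12, 9.29 and 9.07 in fed livers, and 10.19, 10.02 and 10.05 against 9.87, 9.84 and 9.70 in fasted livers, with no overlap in either diet. Cbs, which joins homocysteine and serine, read 9.66, 9.60 and 9.85 against 9.15, 9.18 and 9.24 in fed livers, and 10.09, 9.71 and 9.88 against 9.60, 9.49 and 9.75 in fasted livers. Its averaged fall was 0.40 (limma adjusted p = 0.00863), but fasted Adeno-Cre array 3 lay above fasted Adeno-GFP array 2, so it is not counted as lower in both diets. Mat1a (-0.09), Gldc (-0.05) and Csad (0.33) did not pass.

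Among 12 genes of aminotransferases, glutamate and proline, 6 were lower, each in both diets. Gpt, alanine aminotransferase, read 9.27, 9.16 and 9.42 against 8.82, 8.70 and 8.48 in fed livers, and 9.79, 9.77 and 9.64 against 9.48, 9.40 and 9.27 in fasted livers. The groups were apart in each diet and Gpt fell by 0.48 (SE 0.07, limma adjusted p = 0.00202). Prodh, proline dehydrogenase, fell by 0.46 (limma adjusted p = 0.00311) and Oat, ornithine aminotransferase, by 0.44 (limma adjusted p = 0.00512). Glud1, glutamate dehydrogenase, and Got2 had changes of 0.01 and -0.06 and did not pass. The count of 6 was 3 without fed Adeno-Cre array 3 or fed Adeno-GFP array 3.

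Branched-chain amino acid genes had smaller falls. Of 16, 7 were lower (43.75%, against 2.03% of all genes), 5 of them in both diets (1.46% of all genes were). The list median was -0.18. Pccb, a subunit of propionyl-CoA carboxylase, read 9.83, 9.77 and 9.97 against 9.65, 9.53 and 9.54 in fed livers, and 9.93, 9.97 and 9.91 against 9.69, 9.64 and 9.64 in fasted livers. Each diet had the same fall of 0.28 (averaged limma adjusted p = 0.00703), with no overlap. Hibadh, of valine breakdown, fell by 0.27 (limma adjusted p = 0.00648). Without 1 array this count lay between 2 and 7, and only leaving out fasted Adeno-Cre array 1 or fed Adeno-GFP array 2 kept it above 4. In the urea cycle, Arg1 (arginase) and the ornithine carrier Slc25a15 fell by 0.22 and 0.37, and Cps1, Otc, Ass1, Asl, Nags and Slc25a13 did not pass, with changes from -0.39 to -0.05. The 2 urea cycle calls were both lost without fasted Adeno-Cre array 2, fed Adeno-Cre array 3, fasted Adeno-GFP array 3, fed Adeno-GFP array 1 or fed Adeno-GFP array 3, and 1 was lost without fasted Adeno-GFP array 1.

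**Figure D3:**
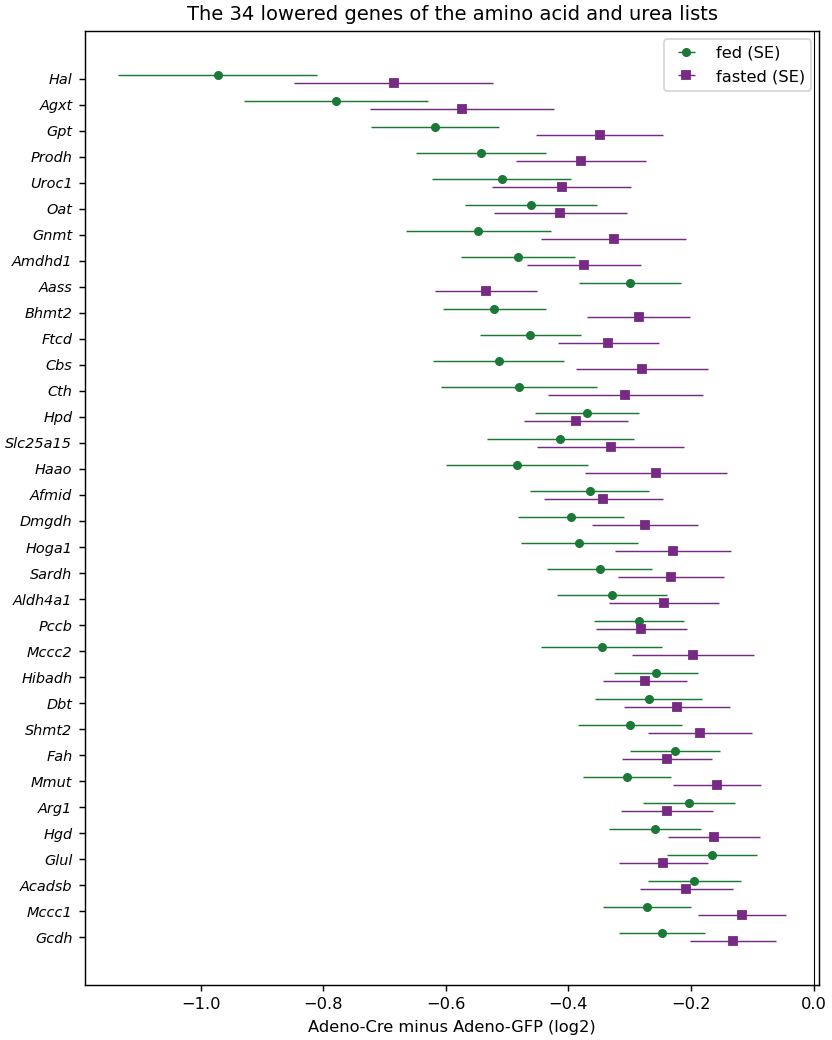
Adeno-Cre minus Adeno-GFP (log2) in fed mice (green circles) and fasted mice (purple squares) for the 34 called genes of the amino acid and urea cycle lists, ordered by the averaged change, with the SE of the limma fit as bars. Every difference lies below 0, and Hal and Agxt stand at the top with the largest falls; the genes were chosen by the averaged call, so the shared sign is part of that choice.

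Hepatocyte genes known for a place in the lobule included lowered members on both sides, around the central vein and near the portal vein. The lists were not tested against each other. Of the 22 pericentral and 14 periportal markers, 8 and 7 are also on other lists, so some calls are counted again elsewhere. Of 22 pericentral markers, 12 were lower (54.5%, against 2.03% of all genes) and none higher. Of the 12, 8 were lower in both diets (1.46% of all genes were), and the list median was -0.25 against -0.03 for all genes. Of 14 periportal markers, 4 were lower (Hal, Pigr, Cyp2f2 and Arg1; 28.6%) and 2 higher (Cdh1 and Hsd17b13; 14.3%, against 3.55% of all genes), with a median of -0.13. Gulo, Tbx3, Slc1a2, Oat, Rnf43 and Rgn are among the pericentral genes lower in both diets. Tbx3, a repressor with a pericentral pattern, read 7.52, 7.71 and 7.61 against 7.20, 6.81 and 7.08 in fed livers, and 7.52, 7.56 and 7.24 against 7.18, 7.07 and 7.20 in fasted livers. Its arrays did not overlap, although by a narrow margin among fasted livers, and it fell by 0.44 (SE 0.08, limma adjusted p = 0.00648). Slc1a2, a glutamate carrier, read 8.60, 8.57 and 8.57 against 8.18, 8.47 and 8.31 in fed livers, and 8.88, 8.76 and 8.82 against 8.37, 8.38 and 8.45 in fasted livers, a fall of 0.34 (limma adjusted p = 0.00414). The Wnt pathway genes Rnf43 and Lgr5 fell by 0.47 and 0.36 (limma adjusted p = 0.00744 and 0.0237), while Axin2 (-0.10), Nkd1 (-0.13), Znrf3 (0.02) and Cyp2e1 (-0.04) did not pass. Glul, glutamine synthetase, fell by 0.21. The pericentral count of 12 was 7 without fed Adeno-GFP array 1, and the rises of Cdh1 and Hsd17b13 each held in only 1 of the 12 fits that left out an array.

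Drug-metabolising enzymes moved in both directions. Of 42 cytochrome P450 genes of families 1 to 3, 9 were lower (21.4%, against 2.03% of all genes) and 4 higher (9.52%, against 3.55%). In both diets 7 were lower (1.46% of all genes were) and 2 higher (2.68% of all genes were). Cyp2c54, a member of a family of close paralogues that probes may not tell apart, read 11.25, 11.15 and 11.07 against 10.88, 10.56 and 10.36 in fed livers, and 11.31, 11.51 and 11.23 against 10.67, 10.71 and 10.66 in fasted livers. Its groups were apart in both diets and it fell by 0.61 (SE 0.09, limma adjusted p = 0.000996). Cyp2d10 and Cyp2d22 fell by 0.43 and 0.36 (limma adjusted p = 0.00623 and 0.00331). Cyp2a4 and Cyp2c55 were higher in both diets, by 0.89 and 1.01. The second probe set of Cyp2c55 had a change of 0.03, and its call held in 5 of the 12 fits without 1 array. Cyp2b9 had a change of 1.71 with an SE of 0.62 and did not pass (limma adjusted p = 0.147), and Cyp2b10, a target of Nr1i3, had a change of 0.26 and did not pass. Of the 4 rises among P450 genes, 0 remained without fed Adeno-GFP array 1, 1 without fasted Adeno-Cre array 2 or fed Adeno-Cre array 1, and 2 without fed Adeno-Cre array 3, fasted Adeno-GFP array 1 or 3, or fed Adeno-GFP array 3.

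Conjugating enzymes and transporters had more lowered than raised genes. Of 30 conjugating enzymes 5 were lower (16.7%, against 2.03% of all genes) and 1 higher (3.33%, against 3.55%). Ugt2b1, a glucuronosyltransferase, read 12.58, 12.53 and 12.62 against 12.21, 12.18 and 12.33 in fed livers, and 12.02, 12.03 and 11.97 against 11.36, 11.61 and 11.28 in fasted livers, with a fall of 0.46 (limma adjusted p = 0.000899). Of 39 hepatocyte transporters 8 were lower (20.5%), 5 in both diets (1.46% of all genes were), and 1 was higher (2.56%). Slc6a12, a betaine carrier, read 8.49, 8.47 and 8.49 in fed Adeno-GFP livers, against a mean of 8.05 (SD 0.05, n = 3, highest 8.09) in fed Adeno-Cre livers, and 8.91, 8.59 and 8.60 against 8.22, 8.15 and 8.18 in fasted livers. Both genes had all Adeno-Cre arrays below the controls of the same diet, and Slc6a12 fell by 0.48 (SE 0.06, limma adjusted p = 0.000658). Abcg5 and Abcg8, the partners of the sterol exporter, fell by 0.49 and 0.41 (limma adjusted p = 0.0243 and 0.0149), and Slc10a1, the main carrier for bile salt uptake, fell by 0.23. The transporter count was 5 without fed Adeno-Cre array 3 or fed Adeno-GFP array 1 and 4 without fed Adeno-GFP array 3, and the count of conjugating enzymes was 2 without fasted Adeno-GFP array 2, fed Adeno-GFP array 2 or fed Adeno-GFP array 3, and 3 without any one of the Adeno-Cre fed arrays, fasted Adeno-GFP array 3 or fed Adeno-GFP array 1. The 1 raised transporter lost its call without fasted Adeno-Cre array 2, and 2 conjugating enzymes were higher without fasted Adeno-GFP array 1 or fed Adeno-GFP array 2. Of 13 carboxylesterases only Ces3b was lower (7.69%, against 2.03% of all genes), with a change of -0.84 (limma adjusted p = 0.00763). Its arrays overlapped in at least 1 diet.

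Bile acid and cholesterol synthesis each had a minority of lowered genes. Of 15 bile acid synthesis genes 5 were lower (33.3%, against 2.03% of all genes), each in both diets (1.46% of all genes were). They were Akr1c6, Slc27a5, Hsd3b7, Cyp27a1 and Baat. Slc27a5, which activates bile acids for conjugation, read 11.54, 11.41 and 11.61 against 11.26, 11.02 and 11.01 in fed livers, and 11.61, 11.63 and 11.31 against 11.22, 11.01 and 11.01 in fasted livers. Its groups were apart in both diets and it fell by 0.43 (SE 0.08, limma adjusted p = 0.00588). Cyp7a1, the rate-limiting enzyme, had a change of -0.29 with an SE of 0.14 and did not pass (limma adjusted p = 0.283). Of 16 cholesterol synthesis genes 3 were lower (18.75%, against 2.03% of all genes), all in both diets (against 1.46%). Msmo1, a methylsterol oxidase, read 8.84, 8.91 and 9.03 against 8.48, 8.41 and 8.47 in fed livers, and 8.04, 7.82 and 8.05 against 7.43, 7.16 and 7.73 in fasted livers, and Hsd17b7 and Tm7sf2 fell with it. Their falls were 0.50, 0.39 and 0.35, while Hmgcs1 (0.15), Sqle (-0.23) and Cyp51 (-0.15) did not pass. The cholesterol count was 5 without fed Adeno-GFP array 2.

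Secreted plasma proteins were lower at a minority of genes. Of 27 coagulation factors and protease inhibitors 6 were lower (22.2%, against 2.03% of all genes), all in both diets (1.46% of all genes were). All 27 changes were negative, as were 13296 of 22180 over all genes. Serpinf2, antiplasmin, read 10.17, 10.14 and 10.26 against 9.89, 9.79 and 9.66 in fed livers, and 10.54, 10.45 and 10.13 against 9.86, 9.63 and 9.94 in fasted livers, a fall of 0.49 (SE 0.08, limma adjusted p = 0.00378). Itih1, an inhibitor that binds hyaluronan, fell by 0.37 (limma adjusted p = 0.0012). Fibrinogen genes Fga, Fgb and Fgg had changes of -0.06, -0.09 and -0.05 and did not pass. Of 18 complement genes 4 were lower (22.2%, against 2.03% of all genes), with Masp1, Mbl2 and C8a lower in both diets. Mbl2, a mannose-binding lectin of the same pathway as Masp1, read 11.36, 11.35 and 11.21 against 11.01, 10.82 and 10.83 in fed livers, and 10.89, 10.72 and 10.81 against 10.48, 10.52 and 10.37 in fasted livers, with no overlap. Apoa5, Lcat and Apoc3 were lower among 18 apolipoprotein genes (16.7%, against 2.03%). The coagulation count was 3 without fasted Adeno-Cre array 2, fed Adeno-Cre array 3, fasted Adeno-GFP array 2, or fed Adeno-GFP array 1 or 3. Among the apolipoprotein genes, Apoc3 and Lcat held in 1 and 2 of the 12 fits without 1 array.

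Other metabolic groups had few calls, to be read beside the 2.03% of all genes that were lower and the 3.55% that were higher. Of 25 genes of fatty acid oxidation and ketogenesis, Decr2 was lower and Crat higher (4.0% each, near those shares), with a median of -0.04. Neither call held without each array in turn. Of 15 gluconeogenesis genes, Gpt and Slc37a4 were lower (13.3%) and Pck2 was higher (6.67%). Slc37a4, the glucose-6-phosphate carrier of the endoplasmic reticulum, read 9.40, 9.46 and 9.47 against 9.00, 9.13 and 8.79 in fed livers, and 9.72, 9.73 and 9.52 against 9.30, 9.19 and 9.15 in fasted livers. The fall of this carrier was 0.46 (SE 0.07, limma adjusted p = 0.00161), while G6pc (-0.33), Pck1 (-0.29) and Fbp1 (-0.15) did not pass. Of 14 glycogen genes Ppp1r3c was lower and Gbe1, the branching enzyme, higher (7.14% each). Of 19 fatty acid synthesis genes Elovl5 was lower (5.26%) and Me1 and Pgd, which supply NADPH, were higher (10.5%). Fasn (-0.14), Scd1 (-0.18) and Acly (-0.02) did not pass. Of 15 growth hormone and STAT5 targets Egfr alone was lower (6.67%), and the male-biased gene Hsd3b5 missed the threshold (-0.89, limma adjusted p = 0.0522). The calls of Pck2, Elovl5 and Egfr did not hold without each array in turn. The growth hormone count was 3 without fasted Adeno-Cre array 2 and 0 without fed Adeno-Cre array 1, fasted Adeno-GFP array 1 or fed Adeno-GFP array 1 or 3. In the glycogen list, 3 genes were higher without fasted Adeno-GFP array 1 and 2 lower without fed Adeno-GFP array 1.

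**Figure D4:**
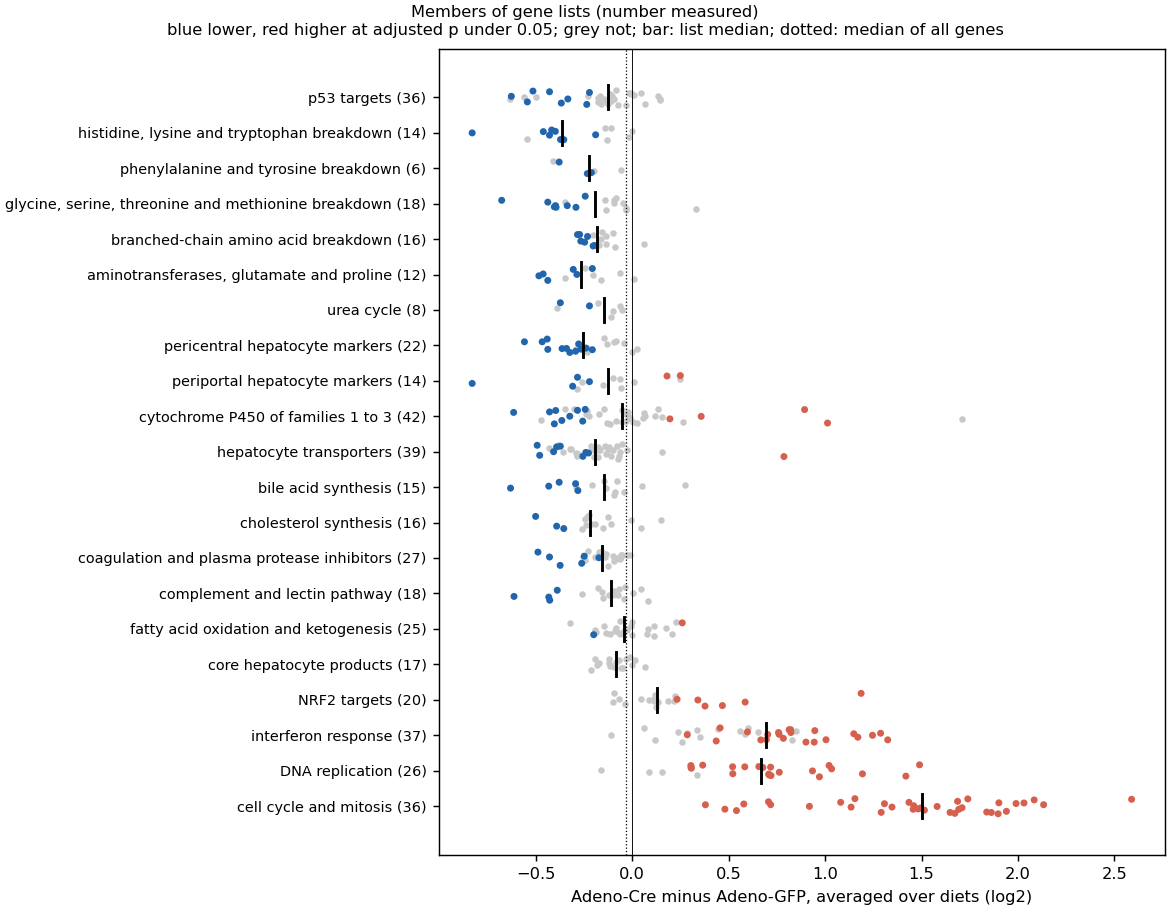
Each point is 1 gene of the list named at the left, placed by its averaged Adeno-Cre minus Adeno-GFP change (log2); blue points were called lower, red points higher and grey points neither, black bars are list medians and the dotted line is the median of all genes, and a gene on 2 lists appears in both. The medians of the amino acid and pericentral lists lie to the left of the dotted line and those of cell cycle, DNA replication and interferon to its right, with single genes on the other side in several lists.

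The highest rises shared by both diets belonged to cell division. All 36 measured cell cycle and mitosis genes were higher after Adeno-Cre (3.55% of all genes were), 33 of them in both diets (2.68% of all genes were). Their median was 1.51 (1.28 in fed and 1.83 in fasted mice), and the count was 36 without each array in turn. Cdk1, whose kinase triggers mitosis, read 8.08, 8.20 and 7.63 against 9.39, 9.48 and 9.43 in fed livers, and 7.43, 6.46 and 6.95 against 8.93, 9.25 and 9.45 in fasted livers. The Adeno-Cre arrays were alike in both diets and the fasted controls lowest, and Cdk1 rose 3.64-fold (1.86 on the log2 scale, SE 0.15, limma adjusted p = 6.07e-05). Kif11, the spindle motor Eg5, read 7.70, 8.21 and 7.34 against 9.23, 9.09 and 9.15 in fed livers, and 6.66, 6.26 and 6.09 against 8.38, 8.81 and 8.97 in fasted livers, where 2 of 3 control arrays lay below the highest array median, so the size of its rise is uncertain. Ect2, Prc1, Nuf2, Kif20b, Knl1, Top2a and Ttk rose by 1.84 to 2.13. On fasted Adeno-GFP array 2, Ect2, Prc1, Nuf2, Kif20b, Knl1 and Ttk also lay below the highest array median, so the size of their rises is uncertain too. Shcbp1, which binds the adaptor protein Shc, had the largest rise of all genes (2.59), but its fasted controls averaged 5.49, below that median, and it was therefore not ranked with these. Of the 10 highest rises among genes with every group mean above the array medians, only Saa3, an acute phase protein, does not belong to cell division. It rose by 1.81 (SE 0.22, limma adjusted p = 0.000439). Among 26 DNA replication genes 21 were higher (80.8%, against 3.55% of all genes), 18 in both diets (2.68% of all genes were), with a median of 0.67.

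Promoters of the listed mitotic genes shared short sequences. A promoter holds these whatever Adeno-Cre did, and the list was drawn up with earlier results known, so the shares describe the listed genes only. The cell cycle homology region (CHR), TTTGAA or TTTAAA on either strand, was present in 24 of 29 promoters of the cell cycle list (82.8%). It was present in 35.4% of genes higher in both diets, which include 33 genes of that list, in 22.4% of genes lower in both diets and in 27.4% of all promoters. The CCAAT box (CCAAT on either strand), which binds NF-Y, was present in 72.4%, 53.7%, 45.2% and 41.6% of these sets. TTTAAA can also be part of a TATA box, and CCAAT overlaps neither form of the CHR. The 250 bases before the starts of Kif11 (chr19:37376132-37376381, plus strand) and Cdk1 (chr10:69352913-69353162, minus strand) are printed to show this arrangement, with CHR and CCAAT letters, or their reverse complements, in capitals.
Kif11: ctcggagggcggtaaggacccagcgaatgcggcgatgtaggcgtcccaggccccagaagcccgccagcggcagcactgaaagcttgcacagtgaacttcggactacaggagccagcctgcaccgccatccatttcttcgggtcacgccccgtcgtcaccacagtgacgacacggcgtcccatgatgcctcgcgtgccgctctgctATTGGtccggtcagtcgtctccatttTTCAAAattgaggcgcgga
Cdk1: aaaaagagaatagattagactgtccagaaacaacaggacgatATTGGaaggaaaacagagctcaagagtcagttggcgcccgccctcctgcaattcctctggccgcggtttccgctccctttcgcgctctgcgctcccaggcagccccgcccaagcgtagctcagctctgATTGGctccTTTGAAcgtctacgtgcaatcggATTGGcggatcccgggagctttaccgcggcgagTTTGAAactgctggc
A CHR lies just before the start in both, with a CCAAT box upstream of it. Matches are a description of the sequence only.

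Of 37 measured interferon-induced genes 22 were higher on average (59.5%, against 3.55% of all genes), 6 of them in both diets (2.68% of all genes were). The median change of the list was 1.20 in fed and 0.16 in fasted mice. In fed mice alone 25 were higher (1.08% of all genes were) and in fasted mice alone 2 (2.26% of all genes were). No member passed the interaction test after adjustment, and 29 had an unadjusted interaction p under 0.05, against 7.56% of all genes. Igtp, a GTPase induced by interferon gamma, was among the 6, and read 9.61, 10.15 and 10.05 against 11.66, 11.34 and 11.26 in fed livers, and 9.71, 9.27 and 9.76 against 10.55, 10.39 and 10.23 in fasted livers. It rose by 1.48 in fed and 0.81 in fasted mice (averaged limma adjusted p = 0.000166). Rsad2, an antiviral enzyme, rose by 0.81 on average (limma adjusted p = 0.0316), from changes of 1.47 in fed and 0.16 in fasted mice. The interferon element, which is GAAA, any 2 bases and GAAA again, searched on both strands, was present in 15 of 24 promoters of this list (62.5%). It was present in 4.6% of genes higher in both diets, in 6.6% of genes lower in both diets and in 3.9% of all promoters. The promoter of Igtp (chr11:58199306-58199555, plus strand) is shown with the element in capitals.
Igtp: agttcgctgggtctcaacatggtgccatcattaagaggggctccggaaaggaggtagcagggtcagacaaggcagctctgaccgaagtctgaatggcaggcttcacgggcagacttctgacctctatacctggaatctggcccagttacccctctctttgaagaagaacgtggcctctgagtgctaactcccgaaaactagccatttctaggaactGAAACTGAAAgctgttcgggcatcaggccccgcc

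Targets of NRF2, the regulator of the oxidative stress response, were higher at 6 of 20 genes (30.0%, against 3.55% of all genes). Each of the 6 was higher in both diets (2.68% of all genes were). Pgd, of the pentose phosphate pathway, read 8.05, 8.03 and 8.16 against 8.70, 8.79 and 8.59 in fed livers, and 7.67, 7.33 and 7.59 against 8.01, 8.19 and 8.06 in fasted livers. Its groups were apart, with rises of 0.62 and 0.56 (averaged limma adjusted p = 0.000361). Gstm3, a glutathione transferase, rose by 0.58 in fed and 1.80 in fasted mice (averaged limma adjusted p = 6.07e-05). In fed mice alone its rise did not pass (limma adjusted p = 0.084). Its limma interaction p was 6.8e-05 unadjusted, and the interaction did not pass after adjustment (0.238). Hmox1 (0.12), Srxn1 (0.13) and Gclm (0.05) did not pass. Of 32 ribosome biogenesis genes Nop58 and Dkc1 were higher (6.25%, near the 3.55% of all genes), and Myc (0.20) did not pass. Of 14 genes of MHC class I presentation Psmb9 and Nlrc5 were higher on average (14.3%, against 3.55%), and neither was higher in both diets. Their count was 4 without fasted Adeno-Cre array 3 and 1 without any other array except fed Adeno-Cre array 2. Dkc1 passed in 6 and Nlrc5 in 2 of the 12 fits without 1 array.

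In a whole liver, fewer cells of a type and less RNA per cell cannot be told apart, so markers of the cell types were measured beside these changes. None of 17 core hepatocyte products was called in either direction, with a median of -0.09. Alb (albumin) and Ttr (transthyretin) had changes of 0.01 and -0.01. The summed level of these 17 genes was nevertheless slightly lower after Adeno-Cre, at 16.36 to 16.38 against 16.39 to 16.42 in fed livers and at 16.33 to 16.37 against 16.39 to 16.46 in fasted livers, without overlap. Stellate cell markers were lower at 4 of 20 genes (Reln, Ecm1, Hand2 and Rgs5), and all 20 changes were negative. Their summed level was 13.01 to 13.20 against 13.32 to 13.37 in fed livers and 12.95 to 13.16 against 13.19 to 13.32 in fasted livers, again without overlap. Reln, which encodes the secreted protein reelin, fell by 0.43 (SE 0.07, limma adjusted p = 0.00508). The stellate count was 1 without fasted Adeno-Cre array 1 or 2, fed Adeno-Cre array 2, fasted Adeno-GFP array 1 or fed Adeno-GFP array 3, and 2 without fed Adeno-Cre array 1 or 3 or fasted Adeno-GFP array 3. All 4 defining stellate markers had mean levels above the highest array median, and of them only Reln passed. Lrat, Des and Dcn had changes of -0.20, -0.16 and -0.20 and did not pass (limma adjusted p = 0.18, 0.207 and 0.0984). All 18 endothelial changes were negative (median -0.16) and none passed, and the sums were 12.65 to 13.09 against 13.14 to 13.20 in fed livers and overlapped in fasted livers.

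Few immune markers passed, and 1 call in 16 or 17 genes (6.25% or 5.88%) is near the 3.55% of all genes that were higher. Of 18 Kupffer cell markers Lyz2 was lower (5.56%, against 2.03% of all genes) and Mpeg1 higher (5.56%, against 3.55%). Clec4f (-0.26), Timd4 (-0.20) and Vsig4 (-0.55) did not pass. The Kupffer cell sum in fed livers, 12.46 to 12.91 after Adeno-Cre, spanned the 12.80 of the controls. In fasted livers it was 12.15 to 12.56 against 12.51 to 12.96. Of 16 monocyte and neutrophil markers Ly6c2 was higher (0.73, limma adjusted p = 0.00593), and of 17 T cell and NK cell markers Gzma was higher (0.68, limma adjusted p = 0.00155), both in both diets, with 2 to 3 monocyte calls without fed Adeno-Cre array 2, fasted Adeno-GFP array 1 or fasted Adeno-GFP array 3 and 2 T cell calls without fed Adeno-Cre array 3. Mpeg1 lost its call without 6 of the arrays, and 2 Kupffer cell markers were lower without fasted Adeno-GFP array 3. Ly6c2, S100a8, S100a9, Cd3e, Cd3d, Cd8a, Cd79a and Ms4a1, defining markers of those cells and of B cells, had mean levels below the highest array median. The monocyte and T cell sums were higher after Adeno-Cre in fed livers, at 10.71 to 10.85 against 10.53 to 10.61 and at 10.75 to 10.94 against 10.62 to 10.64, and overlapped in fasted livers. None of 8 B cell markers passed. Of 9 cholangiocyte markers Krt7 was lower (11.1%, against 2.03% of all genes). Its change was -0.37 (limma adjusted p = 0.0356), and the call was lost in most fits without 1 array. The part of these cell types in the lowered genes was not tested.

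**Figure D5:**
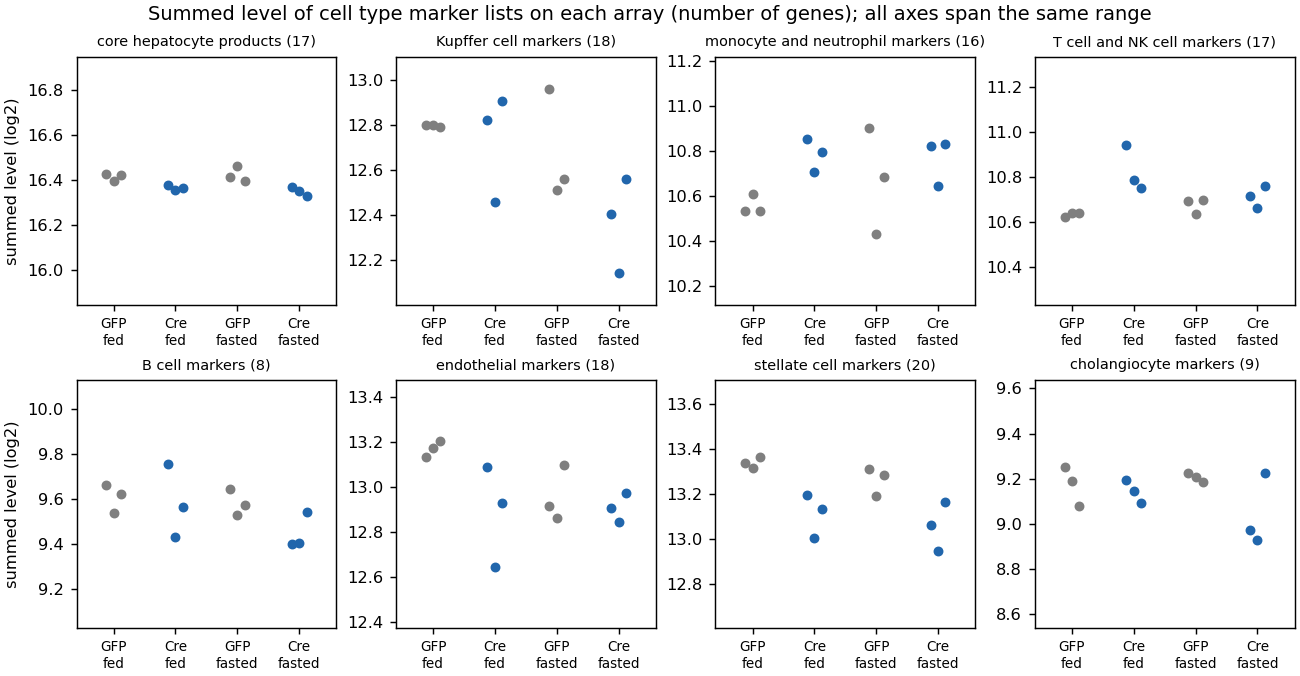
Summed level (log2 of the sum of linear values) of each marker list on each of the 12 arrays, grey for Adeno-GFP and blue for Adeno-Cre, with the number of genes in brackets and axes of equal span. Hepatocyte sums lie between 16.33 and 16.46 over all arrays, stellate sums are lower after Adeno-Cre in both diets, and Kupffer cell sums overlap between injections in both diets.

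Whether the change after Adeno-Cre differed between diets was tested for every gene by the interaction of injection and diet. One gene passed in limma, Slc44a3 (0.00451% of genes), and 1676 genes (7.56%) had an unadjusted p under 0.05. Of the 451 genes lower on average 41 (9.09%) had such a p, and of the 788 higher on average 204 (25.9%). The shares were smaller among genes lower in both diets (14 of 324, 4.32%) and higher in both (111 of 594, 18.7%), but separation in each diet was part of the choice of those genes, which leaves out many whose change differed, so these shares support nothing. C8a, a complement component, was the lowered gene named here with the smallest interaction p (0.0019). It read 12.14, 12.19 and 12.29 against 12.03, 12.02 and 12.03 in fed livers, and 11.77, 11.98 and 11.70 against 11.27, 11.08 and 11.07 in fasted livers, lower in both diets by 0.18 and 0.68. A gene that does not pass the interaction test is not shown to have changed equally in the diets.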

How the data were processed

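Total RNA of mouse liver (200 ng, integrity number above 7, per the labels' protocols) was hybridised to Affymetrix arrays, 1 array per sample and 12 in all. The deposited values are log2 levels per probe set, made by the authors with RMA, per the submitters' processing notes; RMA subtracts background and equalises the arrays, so a shift shared by all genes would be removed, and changes of dim genes are compressed. Its version is not stated, and no genome build is named, in the sources used here. Signal over background is unknown, and the small number of arrays limits precision. Array medians were 6.26 to 6.33 and values 1.62 to 13.96, and correlations within groups 0.991 to 0.994.

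The platform annotation named 1 gene for 23521 of 41345 probe sets, several for 1814, and did not list 16010; RefSeq's table held 23328 of the gene identifiers. The probe set with the highest mean stood for a gene, which left 22180 genes, 1082 of them with more than 1 probe set. A mean per group was fitted in limma 3.58.1 (R 4.3.3) with lmFit and eBayes over the 12 arrays, and the averaged change, each diet's change and their difference were tested with Benjamini-Hochberg adjustment. The fit was tested on simulated data. Tables used pandas 2.3.3 and numpy 2.4.6 (Python 3.11.15), figures matplotlib 3.10.9.

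The comparison, the members and the 38 gene lists were chosen with earlier results of these data known, and lists are described by counts and medians. Named genes were the 20 largest shared falls and 10 largest shared rises among bright, non-predicted genes, the 4 most significant calls of any list holding at least 2 in 1 direction, 6 fixed p53 targets (Cdkn1a, Mdm2, Ccng1, Dcxr, Sesn1 and Plk2) and up to 5 interaction genes; other list members were named after their values were seen. Alternatives were 8 other settings and the omission of each array in turn.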

Additional observations from a re-analysis of the deposited data

Results flagged for a closer look

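Slc44a3, a member of the choline transporter-like family, was the gene whose change after Adeno-Cre differed between the diets by limma's interaction test. It read 8.15, 8.18 and 7.95 in fed Adeno-GFP livers and 7.97, 7.96 and 7.84 in fed Adeno-Cre livers, and 7.51, 7.41 and 7.57 against 8.27, 8.40 and 8.49 in fasted livers. The fasted groups were far apart, and the fed groups overlapped. Its change was -0.17 in fed and 0.89 in fasted mice, a difference of 1.065 (adjusted p = 0.0481), with an averaged change of 0.36. The difference was 1.01 to 1.14 without 1 array, and it passed the threshold in 1 of those 12 fits, the one without fed Adeno-GFP array 3.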

How the results depend on the processing

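The 451 lower genes became 696 when dim genes were left out, where fewer genes were tested, and 299 when all probe sets were tested, where more were. Without 1 array they numbered 236 to 510, the 788 higher genes 574 to 843, the 324 lower in both diets 197 to 369 and the 594 higher in both 492 to 665. Under the other settings the counts stayed within 1.5 times those reported. The interaction call was lost (0 genes) after a second quantile normalisation, with the replicate number as a block and with all probe sets (0 to 1 without 1 array; Cxcl13 took its place without fasted Adeno-GFP array 3). Replicate numbers did not pair the arrays (correlations of deviations -0.09 to 0.15 for equal numbers, -0.18 to 0.13 for different ones; 6 of 12 arrays matched best with their own number). With the replicate number as a block, 384 genes were lower, 726 higher, 271 lower in both diets and 550 higher in both. No called result turned its direction under any of these settings. Of the 113 called named genes, 85 kept the call without each array in turn. Among those given in the text, and Nox4 and Serpina3n, calls lost were Hgd, Arg1, Cdh1, Lcat and Serpina3n after the second quantile normalisation, Arg1, Cdh1, Hsd17b13, Apoc3, Hand2 and Sesn1 with the block, Plk2, Cdh1, Nlrc5, Rgs5, Sesn1 and Slc44a3 without an interaction term, and Cdh1 and Cyp2c55 with probe sets averaged. Fasted Adeno-Cre array 3 had the lowest array weight (0.50), and weighting arrays gave 526 lower and 878 higher genes. Levels near the medians may lie at background, and the cause of shifts with single arrays was not tested.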
